A study of Homo sapiens with 12 samples.

Results

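The genes described here are 42 that encode the machinery of autophagy and the receptors that bring cargo to it. They were listed by name and known role. Of them 5 belong to the ULK initiation complex, 6 to the lipid kinase complex that nucleates the membrane, and 8 to phosphoinositide effectors and lipid supply. The others are 7 genes of the conjugation system, 4 ATG4 proteases, 5 ATG8 proteins, 5 cargo receptors and 2 genes of fusion and tethering. All 42 were found among the 54553 genes of the deposited tables, and all 42 were among the 18047 with enough reads to be tested. The study measured RNA by ribosomal RNA-depleted total RNA sequencing of Caco-2 cells, a single human colorectal carcinoma line that carries features of intestinal enterocytes and is labelled here as wild type. There were 4 groups of 3 libraries. In depleted medium with bafilomycin A1, sub-confluent cells spent 48 h with 100 nM of the drug in medium holding 0.1 g/L glucose, 0.2 mM glutamine and 1% serum, and in depleted medium with vehicle they spent 48 h in that medium without the drug. In rich medium with bafilomycin A1 the same dose was given for 48 h in medium with 1 g/L glucose, 2 mM glutamine and 20% serum, and the rich medium with vehicle was its control. The labels give no time for the rich vehicle group and do not say what the vehicle was. The depleted medium was based on DMEM and the rich one on EMEM, so glucose, glutamine, serum and base medium cannot be told apart.

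Autophagy encloses cytoplasm in a newly built membrane sac, the autophagosome, and delivers it to lysosomes for breakdown. The ULK kinase complex starts the process, a class III phosphoinositide 3-kinase marks the growing membrane with PI3P, WIPI proteins bind that lipid, and conjugation enzymes attach ATG8 proteins (the LC3 and GABARAP families) to the membrane, where cargo receptors such as SQSTM1 dock. Bafilomycin A1 blocks the V-ATPase, the proton pump that acidifies lysosomes, so that delivered material is not broken down. Transcript levels were measured here, not proteins, lipidation or autophagic flux.

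The deepest library held 51649213 reads assigned to genes and 11 of the 12 libraries held at least 33859998, whereas rich vehicle replicate 1 held 12969814. It also stood apart in ALB, a marker of hepatocytes, which reached 303 TPM, a length-scaled abundance, and the summed level of 10 markers of other cell types was 329 TPM there against 10.2 to 43.3 TPM in the other 11. On the first principal component, which held 52.0% of the variance, rich bafilomycin A1 replicate 3 lay at 4.62, apart from -22.9 and -26.2 for its own group and nearer to the depleted vehicle libraries at 16.1 to 24.4. Where a member's call changed without 1 of these libraries, the value or the range of adjusted p stands beside the gene. A change seen only without both together is given too. Changes without both that also occurred without 1 of them are not all repeated. The leukocyte markers PTPRC and CD3E did not exceed 0.223 TPM in any library, whereas the monocyte marker CD14 had reads in all 12 and averaged 2.94 TPM in depleted medium with bafilomycin A1, 3.92 TPM in depleted medium with vehicle, 7.47 TPM in rich medium with bafilomycin A1 and 11.4 TPM in rich medium with vehicle. The endothelial and stromal markers PECAM1, VWF, COL1A1, COL1A2, COL3A1 and PDGFRB also had reads in all 12. COL1A1 averaged 5.08 to 7.04 TPM over the groups, and PECAM1 did not exceed 4.99 TPM in any library. PDGFRB averaged 3.43 TPM in depleted medium with vehicle, against 0.854 to 1.31 TPM in the other groups. The part of these genes and of CD14 in the results was not tested. In each library 9 or 10 of 10 markers of Caco-2 cells and enterocytes had reads, with KRT20 at no more than 0.393 TPM. The summed level of those 10 markers was 1403 to 2294 TPM in depleted medium with bafilomycin A1, 2816 to 3147 TPM in depleted medium with vehicle, 3222 to 4677 TPM in rich medium with bafilomycin A1 and 4943 to 8173 TPM in rich medium with vehicle, and its part in the results was not tested. Much of that sum was keratin. KRT8 averaged 3492 TPM in rich medium with vehicle and 583 TPM in depleted medium with bafilomycin A1, and KRT18 1650 and 275 TPM. In the same groups CDH1 averaged 415 and 394 TPM. CDX2, at 24.9 and 29.8 TPM, was the only marker of the 10 that was higher in the second group. In bulk RNA, fewer cells of a kind and less RNA per cell cannot be told apart. Nothing in the labels says that the 3 libraries of a group are separate cultures, and the p-values therefore speak for the spread between these libraries, which may be technical.

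More autophagy genes rose than fell, both with bafilomycin A1 and with nutrient depletion. In rich medium 11 of 42 rose with the drug and 0 fell, against 6.15% of all genes tested that rose, 4.78% that fell and 10.9% called in either direction. In depleted medium the drug again raised 11 and lowered 0, where 5.5% of all genes rose, 5.91% fell and 11.4% were called. Depletion with vehicle raised 17 and lowered 2, where 15.5% of all genes rose, 15.4% fell and 30.9% were called. The 17 include MAP1LC3A, which had few reads. Depletion in the presence of bafilomycin A1 raised 13 and lowered 0, where 10.5% rose, 13.6% fell and 24.1% were called. A call here is an adjusted p under 0.05 in edgeR's quasi-likelihood test across all 12 libraries, with Benjamini-Hochberg adjustment over all genes tested. The median log2 fold change of the 42 genes was 0.37 and 0.34 for the drug in rich and in depleted medium, and 0.35 for depletion both with vehicle and with the drug, where the medians over all genes were 0.02, -0.03, 0.04 and 0.01.

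The same shares were also read among genes that averaged at least 10 CPM, counts scaled by library size. Among those 36 members, 30.6% rose with the drug in rich medium, against 7.09% of 9886 such genes, of which 7.88% fell. In depleted medium 27.8% of the 36 rose with the drug, against 8.23% of such genes, of which 7.79% fell. Depletion raised 41.7% with vehicle, against 16.3%, with 23.9% of such genes falling, and 36.1% with the drug, against 14.3%, with 18% falling. Without rich vehicle replicate 1 and rich bafilomycin A1 replicate 3 together, an alternative chosen after seeing the data, 9, 14, 17 and 18 members were called in these 4 comparisons in the same order. Leaving out 1 library moved some counts by more than 1.5 times. For the drug in depleted medium 4 members were called without depleted bafilomycin A1 replicate 3, and 6 without depleted vehicle replicate 1 or 2. For the drug in rich medium 7 were called without rich bafilomycin A1 replicate 3, and for depletion with the drug 8 were called without depleted bafilomycin A1 replicate 3 and 7 without rich bafilomycin A1 replicate 2. Over the 4 comparisons, 25 members rose in at least 1, 2 fell in at least 1 and 15 were called in none.

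**Figure D1:**
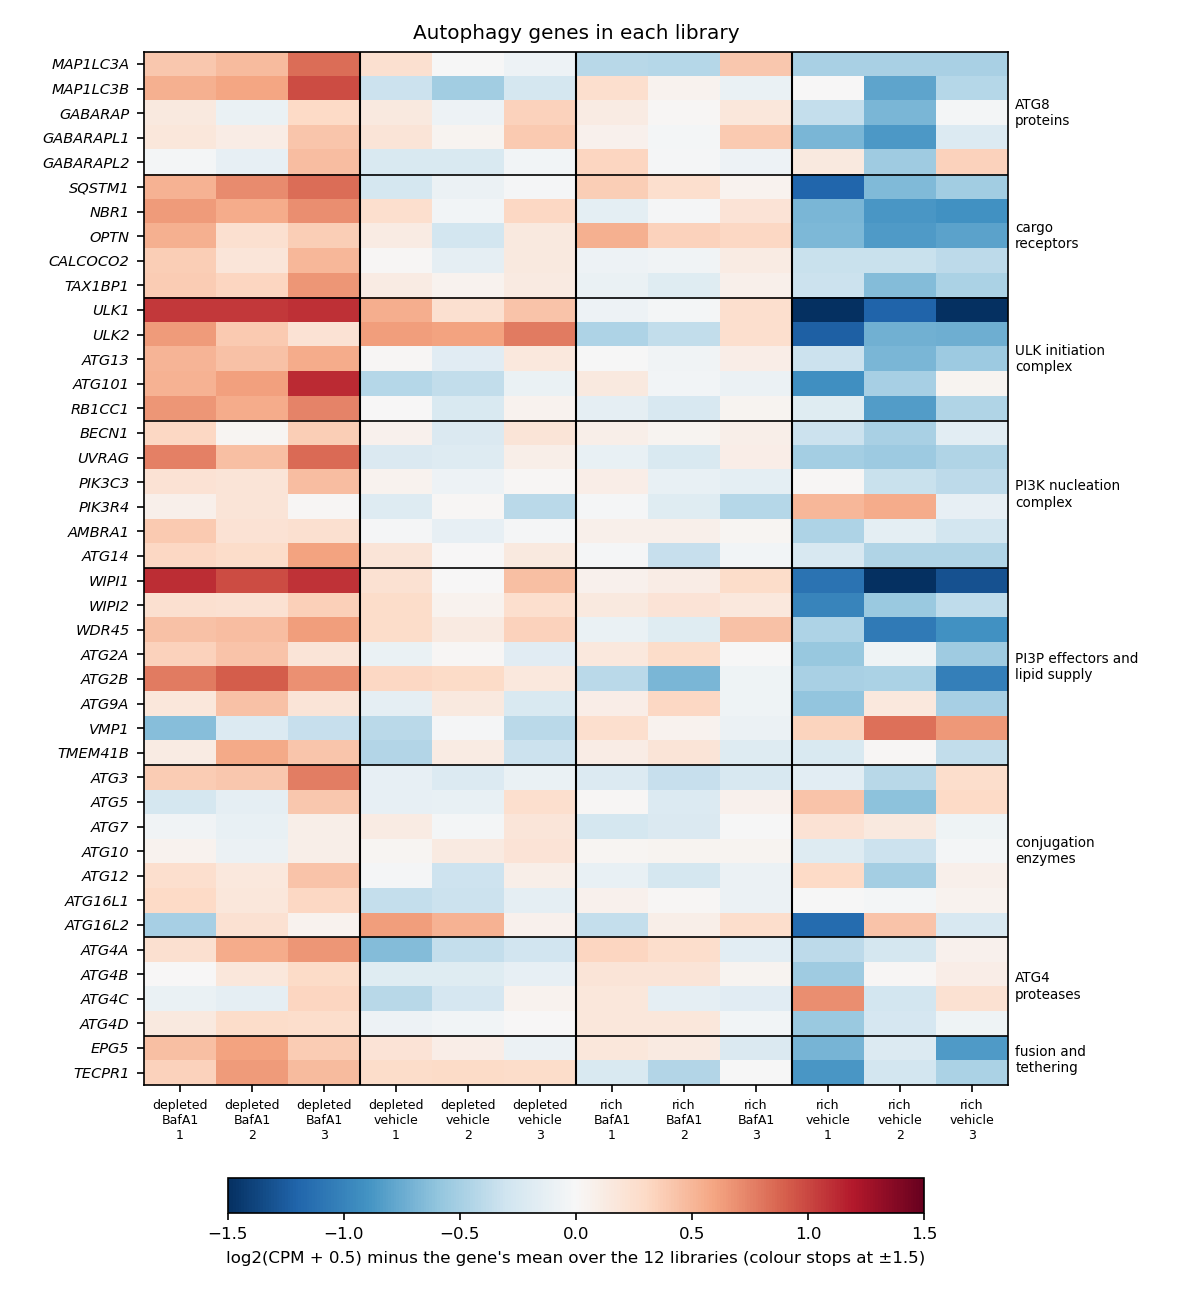
Each row is 1 of the 42 autophagy genes, grouped by role, and each column is 1 of the 12 libraries; colour is log2(CPM + 0.5) minus the gene's mean over the libraries. The group mean was highest in depleted medium with bafilomycin A1 for 32 of the 42 genes and lowest in rich medium with vehicle for 29. VMP1 is a row that runs the other way. The same counts were not made over all genes tested, so whether this order is particular to these genes is not shown.

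The summed level of the 42 genes showed the same order in every library. It was 4116, 4320.4 and 4711 CPM in depleted medium with bafilomycin A1, against 3016, 3047 and 3211 CPM in depleted medium with vehicle. In rich medium it was 3433, 3268 and 3232 CPM with bafilomycin A1, against 2399, 2544 and 2571 CPM with vehicle. The ranges did not overlap between drug and vehicle in either medium. Between media they did not overlap with vehicle or with the drug either, although SQSTM1 alone supplied 244 to 999 CPM of each sum.

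**Figure D2:**
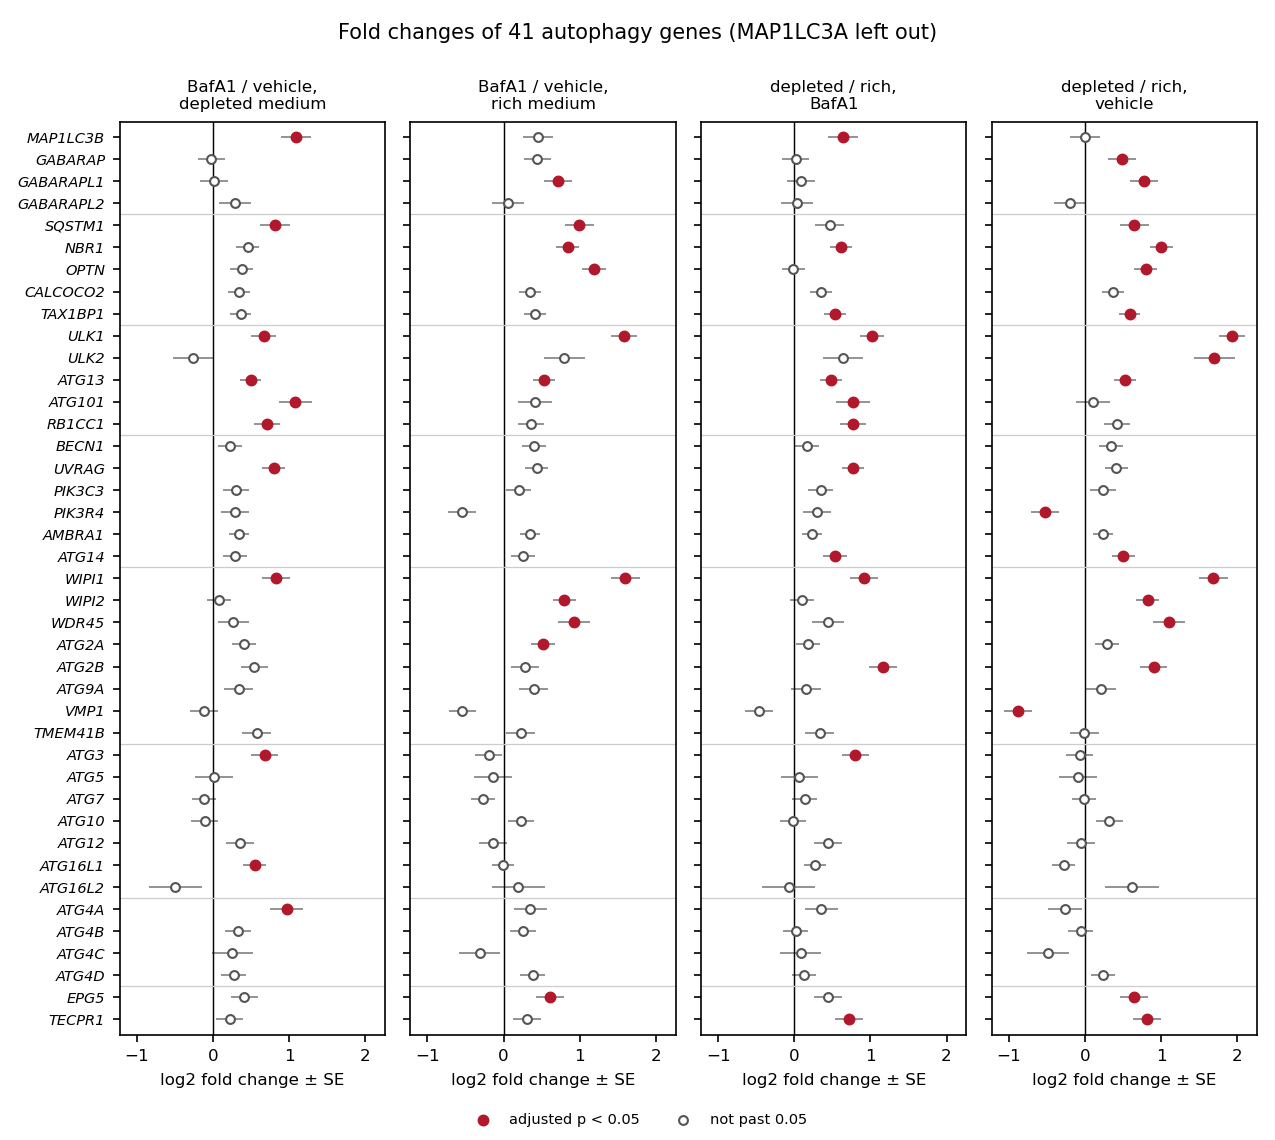
Log2 fold changes with standard errors for 41 of the genes in the 4 comparisons of 2 groups, with genes in rows by role; filled points passed an adjusted p of 0.05 and open points did not. MAP1LC3A is left out because it had 0 reads in all rich vehicle libraries. Points to the right of the line at 0 dominate each panel, and filled points to its left are VMP1 and PIK3R4 in the comparison of media with vehicle.

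The ULK initiation complex had 2 of its 5 genes raised by the drug in rich medium, 4 in depleted medium, 3 by depletion with vehicle and 4 by depletion with the drug. ULK1, the kinase that starts autophagosome formation and is restrained by mTORC1 (chromosome 12, 131894622 to 131923150 in RefSeq GRCh38.p14), stood at 211, 211 and 216 CPM in depleted medium with bafilomycin A1, against 147, 119 and 135 CPM in depleted medium with vehicle. In rich medium it stood at 95.5, 98.8 and 119.8 CPM with bafilomycin A1, against 29.8, 43.3 and 31.8 CPM with vehicle. The drug and vehicle libraries did not overlap in either medium, and neither did those of the 2 media. The drug raised ULK1 2.99-fold in rich medium (log2 fold change 1.58, SE 0.17, adjusted p = 1.5e-04) and 1.59-fold in depleted medium (0.67, SE 0.16, adjusted p = 0.015). Depletion raised it 3.82-fold with vehicle (1.93, SE 0.17, adjusted p = 7.5e-06) and 2.03-fold with the drug (1.02, SE 0.16, adjusted p = 4.8e-04). The call in depleted medium with the drug against vehicle ended without depleted vehicle replicate 2 (0.59, adjusted p = 0.081) and without depleted bafilomycin A1 replicate 2 or 3 (adjusted p = 0.050 and 0.059). ULK1 overlaps no exon of another gene in the GENCODE 29 annotation.

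ULK2, its close relative, had low counts, with 8.08, 6.77 and 5.93 CPM in depleted medium with bafilomycin A1 and 8.05, 7.93 and 8.98 CPM in depleted medium with vehicle. Rich medium gave 3.51, 3.79 and 6.08 CPM with bafilomycin A1 and 1.86, 2.87 and 2.83 CPM with vehicle. It rose with depletion in vehicle-treated cells (1.70, SE 0.27, adjusted p = 3.4e-04), where the groups did not overlap, and was not called in the other 3 comparisons. With the drug, depleted and rich libraries overlapped with rich replicate 3 the highest of its group, and without that replicate depletion passed (0.92, adjusted p = 0.020), as it did without rich vehicle replicate 1 (0.64, adjusted p = 0.048).

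ATG13, a scaffold of the complex and a direct mTORC1 substrate, had 188, 178 and 193 CPM in depleted medium with bafilomycin A1 and 133, 117 and 147 CPM in depleted medium with vehicle. Rich medium gave 130.3, 127 and 141 CPM with bafilomycin A1 and 105, 81.1 and 90.1 CPM with vehicle. It changed by similar small steps of log2 0.53 and 0.49 for the drug in rich and depleted medium and 0.52 and 0.49 for depletion with vehicle and with the drug (adjusted p = 0.03, 0.038, 0.013 and 0.022). These calls were close to the threshold and held in 12, 11, 17 and 14 of 20 alternatives. Those that ended them included leaving out rich bafilomycin A1 replicate 3 (0.48, adjusted p = 0.095) for the drug in rich medium, depleted vehicle replicate 2 (0.41, adjusted p = 0.16) for the drug in depleted medium, depleted vehicle replicate 3 (0.42, adjusted p = 0.083) for depletion with vehicle and rich bafilomycin A1 replicate 2 (0.46, adjusted p = 0.095) for depletion with the drug. The drug's call in rich medium also ended without rich vehicle replicate 2, rich bafilomycin A1 replicate 1 or 2, or depleted vehicle replicate 1, that in depleted medium without rich bafilomycin A1 replicate 1 or 2, depleted vehicle replicate 1 or any depleted bafilomycin A1 library, and that for depletion with the drug without rich bafilomycin A1 replicate 1 or depleted bafilomycin A1 replicate 1 or 3 (adjusted p = 0.051 to 0.127).

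ATG101, which stabilises ATG13, showed another pattern. Its level was 82.8, 88.6 and 126 CPM in depleted medium with bafilomycin A1, against 42.5, 44.3 and 53.6 CPM in depleted medium with vehicle. Rich medium gave 63.7, 55.9 and 54.3 CPM with bafilomycin A1, against 30.1, 40.7 and 59.1 CPM with vehicle, and those groups overlapped. Both calls involved the depleted drug-treated libraries, which lay above all others: the drug raised it in depleted medium (1.08, SE 0.22, adjusted p = 0.006) and depletion raised it with the drug (0.77, SE 0.22, adjusted p = 0.018). Depletion with vehicle gave 0.11 (95% interval -0.32 to 0.54). The call for depletion with the drug ended without rich bafilomycin A1 replicate 2 or 3 (adjusted p = 0.076 and 0.053) or depleted bafilomycin A1 replicate 3 (0.57, adjusted p = 0.105), and without rich vehicle replicate 3 the drug passed in rich medium (0.71, adjusted p = 0.038). RB1CC1 (FIP200), the large scaffold of the complex, was called in the same comparisons, at 0.71 and 0.77 (adjusted p = 0.013 and 0.0038). With replicate as a blocking factor RB1CC1 also passed for depletion with vehicle (0.43, adjusted p = 0.019), as it did without rich vehicle replicate 1 (0.58, adjusted p = 0.015), and its call for the drug in depleted medium ended without depleted vehicle replicate 2 (0.63, adjusted p = 0.069) or depleted bafilomycin A1 replicate 3 (0.66, adjusted p = 0.060).

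ULK1, WIPI1, a PI3P effector, and ATG13 were each called in all of the 4 comparisons, which share libraries. The 250 bases before their RefSeq start sites are shown because these genes carry the broadest response, beside those of ATG3 and ATG14, which held CACGTG, the E-box bound by MiT/TFE factors and many other basic helix-loop-helix proteins. The windows are from RefSeq, GRCh38.p14, written 5′ to 3′ on the gene's own strand, with any CACGTG in capitals: ULK1 at chr12:131894372-131894621 (plus strand), WIPI1 at chr17:68457497-68457746 (minus strand), ATG13 at chr11:46617303-46617552 (plus strand), ATG3 at chr3:112561963-112562212 (minus strand) and ATG14 at chr14:55411831-55412080 (minus strand).
ULK1: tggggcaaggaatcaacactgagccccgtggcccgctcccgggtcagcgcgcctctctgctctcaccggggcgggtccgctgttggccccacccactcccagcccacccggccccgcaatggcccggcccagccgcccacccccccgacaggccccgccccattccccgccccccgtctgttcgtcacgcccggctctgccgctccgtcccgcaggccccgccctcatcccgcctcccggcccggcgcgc
WIPI1: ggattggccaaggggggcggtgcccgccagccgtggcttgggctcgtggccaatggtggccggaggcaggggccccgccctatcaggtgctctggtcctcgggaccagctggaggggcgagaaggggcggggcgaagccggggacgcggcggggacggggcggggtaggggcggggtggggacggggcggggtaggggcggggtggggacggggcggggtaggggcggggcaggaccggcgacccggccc
ATG13: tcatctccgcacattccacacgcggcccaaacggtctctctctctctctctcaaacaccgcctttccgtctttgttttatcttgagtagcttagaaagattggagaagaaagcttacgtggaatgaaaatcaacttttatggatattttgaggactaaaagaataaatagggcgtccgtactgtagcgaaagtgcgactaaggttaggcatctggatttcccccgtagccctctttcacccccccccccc
ATG3: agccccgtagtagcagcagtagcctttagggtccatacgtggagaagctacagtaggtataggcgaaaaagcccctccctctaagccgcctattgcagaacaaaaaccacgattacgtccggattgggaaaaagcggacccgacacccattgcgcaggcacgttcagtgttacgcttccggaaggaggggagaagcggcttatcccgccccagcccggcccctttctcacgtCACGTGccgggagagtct
ATG14: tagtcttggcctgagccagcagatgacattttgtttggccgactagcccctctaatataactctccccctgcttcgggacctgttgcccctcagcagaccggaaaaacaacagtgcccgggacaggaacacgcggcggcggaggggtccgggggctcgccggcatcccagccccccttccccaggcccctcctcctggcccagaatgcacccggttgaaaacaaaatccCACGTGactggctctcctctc
The ULK1 and WIPI1 promoters were rich in G and C, at 78.0% and 79.6%, and that of ATG13 was not, at 47.2%. Windows were at hand for 37 of the 42 genes, and their median G and C content was 62.8%, against 58.0% over 35116 windows of all genes. On both strands of the 250 bases, CACGTG was present in 2 of the 37 genes (5.41%), against 7.73% of 27305 genes, and its longer forms, TCACGTGA and the full CLEAR element, in 0 of 37, against 1.04% and 0.374%. The amino acid response motif TGATGNAA was in 0 of 37, against 3.89%, and the forkhead motif GTAAACA in 1, CALCOCO2, against 3.66%. The longer forms contain CACGTG, so these shares are not independent, and a window without a match says only that these letters are not in it.

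Among the 6 genes of the PI3K nucleation complex, UVRAG and ATG14 were each raised in 2 comparisons. UVRAG encodes an alternative subunit of the BECN1 complex that takes part in autophagosome maturation and endosomal traffic. UVRAG stood at 102, 82.9 and 109 CPM in depleted medium with bafilomycin A1, against 52.1, 52.9 and 64.4 CPM in depleted medium with vehicle. Rich medium gave 55.96, 51.6 and 64.8 CPM with bafilomycin A1, against 42.4, 41.1 and 43.98 CPM with vehicle. No pair of groups compared overlapped, and it rose with the drug in depleted medium (0.80, SE 0.15, adjusted p = 0.0038) and with depletion in drug-treated cells (0.77, SE 0.15, adjusted p = 0.002). For depletion with vehicle its adjusted p was 0.051 (log2 fold change 0.41), and it passed with replicate as a blocking factor (0.40, adjusted p = 0.020) and without rich bafilomycin A1 replicate 3 (0.41, adjusted p = 0.046).

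ATG14, the subunit that directs the kinase to autophagosome formation sites, rose with depletion both with vehicle (0.51, adjusted p = 0.021) and with the drug (0.54, adjusted p = 0.019). Its means were 46.1 ± 5.87 and 37.7 ± 2.46 CPM in depleted medium with the drug and with vehicle, and 31.7 ± 4.03 and 26.6 ± 2.42 CPM in rich medium (SD, n = 3 each). Leaving out 1 library ended these calls in several cases, with adjusted p of 0.050 to 0.082 without rich vehicle replicate 3 or depleted vehicle replicate 1 or 3, and of 0.113 and 0.097 without rich bafilomycin A1 replicate 2 or depleted bafilomycin A1 replicate 3. PIK3R4, the regulatory kinase-like subunit (VPS15), fell with depletion in vehicle-treated cells (-0.53, adjusted p = 0.041), but the libraries overlapped, at 48.4, 56.3 and 41.8 CPM in depleted medium against 78.4, 81.7 and 51.1 CPM in rich medium. That call held in 9 of 20 alternatives and ended without either rich vehicle replicate 1 (-0.45, adjusted p = 0.10) or 2 (-0.40, adjusted p = 0.12), without depleted vehicle replicate 1 or 3 (adjusted p = 0.111 and 0.138), and without rich bafilomycin A1 replicate 2 or any of the 3 depleted bafilomycin A1 libraries (adjusted p = 0.052 to 0.056). BECN1, the scaffold of the complex, PIK3C3, its catalytic subunit, and AMBRA1, a regulator of BECN1 and of ULK1, were called in none of the 4, with log2 fold changes between 0.17 and 0.39. AMBRA1 passed for the drug in depleted medium without rich vehicle replicate 1 (0.34, adjusted p = 0.0498). The drug raised none of the 6 in rich medium, where 4 had an unadjusted p under 0.05 in edgeR and DESeq2 called AMBRA1 higher and PIK3R4 lower. In edgeR PIK3R4 also passed there as lower without rich vehicle replicate 3 (-0.72, adjusted p = 0.013). So it did with replicate as a blocking factor (-0.53, adjusted p = 0.020) and with no low-count filter (-0.54, adjusted p = 0.049). UVRAG passed as higher under the block (0.43, adjusted p = 0.031), and AMBRA1 without rich vehicle replicate 2 (0.43, adjusted p = 0.046).

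Of the 8 genes of PI3P effectors and lipid supply, 4 rose with the drug in rich medium, 1 in depleted medium, 4 with depletion in vehicle-treated cells, where 1 fell, and 2 with depletion in drug-treated cells. WIPI1, which binds PI3P on the forming autophagosome (chromosome 17, 68421281 to 68457496), stood at 71.98, 65.98 and 70.9 CPM in depleted medium with bafilomycin A1, against 39.1, 33.4 and 45.5 CPM in depleted medium with vehicle. Rich medium gave 34.7, 35.8 and 40.4 CPM with bafilomycin A1, against 15.2, 8.70 and 13.1 CPM with vehicle. No 2 of the compared groups overlapped. The drug raised WIPI1 3.02-fold in rich medium (1.60, SE 0.19, adjusted p = 3.3e-04) and 1.77-fold in depleted medium (0.82, SE 0.19, adjusted p = 0.01), and depletion raised it 3.22-fold with vehicle (1.69, SE 0.19, adjusted p = 4.5e-05) and 1.88-fold with the drug (0.91, SE 0.19, adjusted p = 0.0026). The call in depleted medium ended without depleted vehicle replicate 2 (0.72, adjusted p = 0.060). Exons of WIPI1 overlap exons of ARSG on the other strand.

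WIPI2, the family member that recruits ATG16L1, was low in rich vehicle libraries and level in the others. It had 71.3, 71.2 and 77.3 CPM in depleted medium with bafilomycin A1 and 73.3, 62.9 and 72.2 CPM in depleted medium with vehicle, and 67.2, 69.97 and 67.7 CPM in rich medium with bafilomycin A1 and 30.2, 40.9 and 46.3 CPM in rich medium with vehicle. The 9 libraries outside the rich vehicle group lay between 62.9 and 77.3 CPM, above all 3 of that group. The drug raised it in rich medium (0.80, adjusted p = 0.0053) and depletion raised it with vehicle (0.82, adjusted p = 0.0011), while the drug in depleted medium gave 0.08 (95% interval -0.22 to 0.38) and depletion with the drug 0.10 (-0.20 to 0.40). WDR45 (WIPI4), which partners ATG2, had 18.99, 19.4 and 21.7 CPM in depleted medium with bafilomycin A1, 16.8, 15.2 and 17.8 CPM in depleted medium with vehicle, 12.9, 12.2 and 19.1 CPM in rich medium with bafilomycin A1 and 9.90, 6.42 and 7.18 CPM in rich medium with vehicle. It rose with the drug in rich medium (0.92, adjusted p = 0.013) and with depletion in vehicle-treated cells (1.10, adjusted p = 0.0013). Rich bafilomycin A1 replicate 3 was the highest of its group, and without it the drug's call in rich medium ended (0.70, adjusted p = 0.063) and depletion passed in drug-treated cells (0.68, adjusted p = 0.027).

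ATG2B and ATG2A encode lipid transfer proteins that carry lipid from the endoplasmic reticulum to the growing membrane. ATG2B rose with depletion. It had 118, 130.2 and 111 CPM in depleted medium with bafilomycin A1, against 52.2, 42.7 and 66.03 CPM in rich medium with bafilomycin A1. With vehicle it had 85.6, 83.9 and 77.2 CPM in depleted medium, against 49.3, 49.4 and 33.6 CPM in rich medium. The media did not overlap, and depletion raised it 2.24-fold with the drug (1.16, SE 0.18, adjusted p = 4.2e-04) and 1.87-fold with vehicle (0.90, SE 0.18, adjusted p = 0.0018). In depleted medium the drug-treated libraries also lay above those with vehicle, and the drug gave 0.54 (adjusted p = 0.062). That change passed in 9 of 20 alternatives, among them DESeq2 (0.55, adjusted p = 0.035), replicate as a blocking factor (0.55, adjusted p = 0.046), the 6 compared libraries alone (0.54, adjusted p = 0.0059) and leaving out any 1 rich vehicle library or rich bafilomycin A1 replicate 3 (adjusted p = 0.031 to 0.047). ATG2A rose only just with the drug in rich medium (0.52, adjusted p = 0.048), a call that held in 4 of 20 alternatives and ended without any 1 library other than rich vehicle replicate 2, with adjusted p of 0.060 to 0.15. Under the block ATG2A passed for the drug in depleted medium (0.41, adjusted p = 0.042).

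VMP1 fell with depletion in vehicle-treated cells, where it and PIK3R4 were the 2 members called lower. It encodes an endoplasmic reticulum scramblase needed to close autophagosomes, and its gene hosts the microRNA MIR21. VMP1 had 175, 230.4 and 176 CPM in depleted medium with vehicle, against 293, 413 and 367 CPM in rich medium with vehicle, with no overlap (-0.88, SE 0.18, adjusted p = 0.0022). With bafilomycin A1 it had 149.5, 202 and 183 CPM in depleted medium, against 277, 241 and 219 CPM in rich medium, also with no overlap but not past the threshold (-0.46, SE 0.18, adjusted p = 0.079). It passed there, at the threshold, without rich vehicle replicate 1 (-0.46, adjusted p = 0.05) and with the 6 compared libraries alone (-0.45, adjusted p = 0.041). So it did without rich vehicle replicate 1 and rich bafilomycin A1 replicate 3 together (-0.54, adjusted p = 0.037). The drug gave -0.54 in rich medium (adjusted p = 0.071) and -0.12 in depleted medium (adjusted p = 0.74). The change in rich medium passed without rich vehicle replicate 1 (-0.67, adjusted p = 0.040) and in DESeq2 (-0.56, adjusted p = 0.023). Exons of VMP1 overlap PTRH2 on the other strand and MIR21 on its own. TMEM41B, a scramblase with a related role, was called in none, at 343 ± 53.3 and 231 ± 49.8 CPM in depleted medium with the drug and with vehicle and 272 ± 37.3 and 232 ± 32.4 CPM in rich medium, although under the block it passed for the drug in depleted medium (0.58, adjusted p = 0.011). ATG9A, the vesicle protein that seeds the membrane, had 114, 139 and 117 CPM in depleted medium with bafilomycin A1, 92.9, 113 and 86.9 CPM in depleted medium with vehicle, 109, 126 and 97.3 CPM in rich medium with bafilomycin A1 and 67.4, 114 and 71.7 CPM in rich medium with vehicle. It was called in none, and without rich vehicle replicate 2, the high library of its group, it passed for the drug in rich medium (0.67, adjusted p = 0.016) and for depletion with vehicle (0.49, adjusted p = 0.035).

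**Figure D3:**
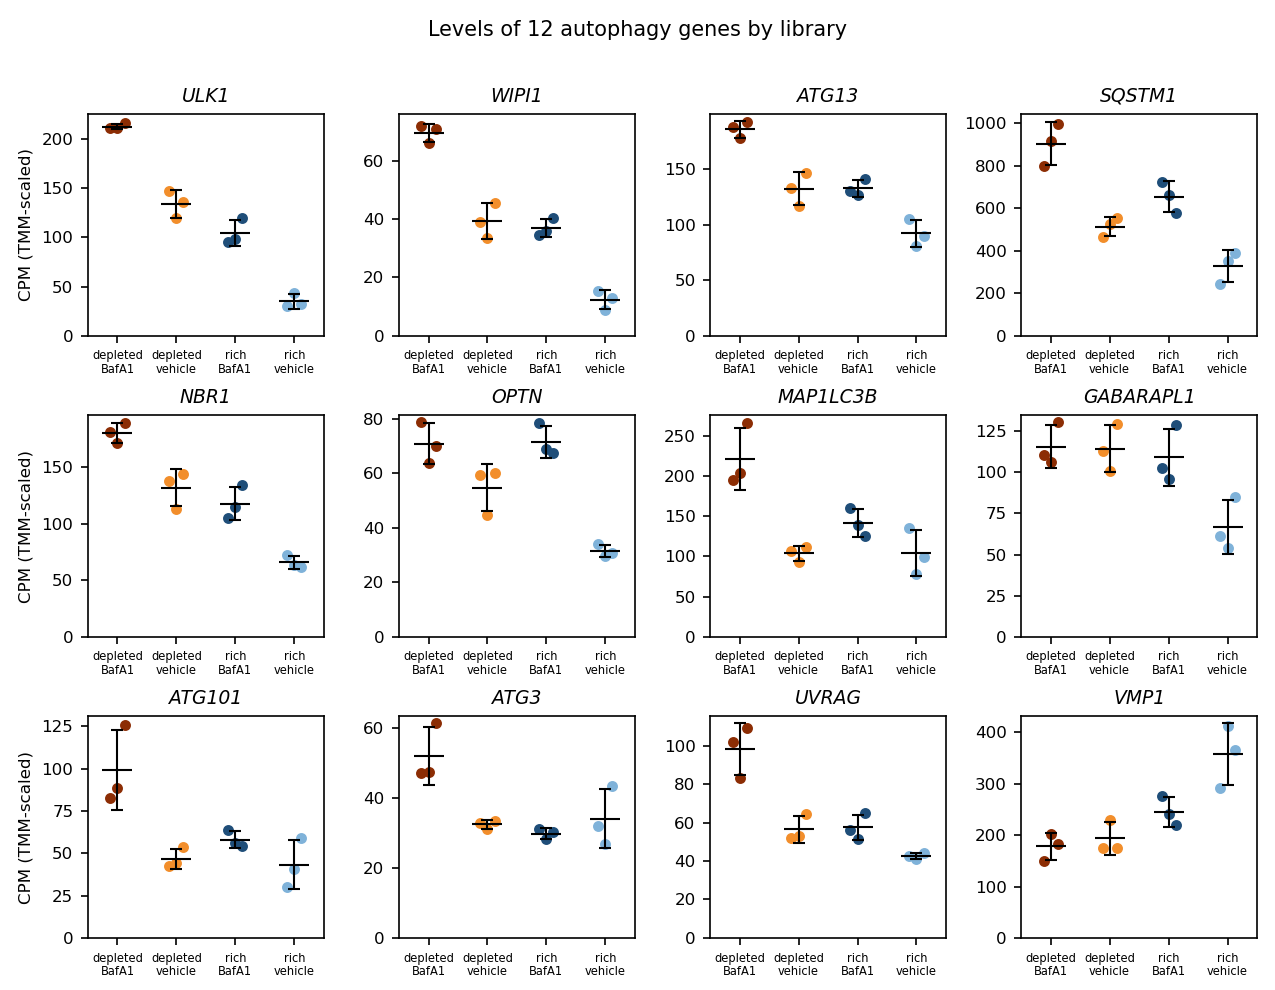
Level of 12 of the genes in each library, as TMM-scaled CPM on axes that start at 0; each dot is a library, and the bar and whiskers are the group mean and SD (n = 3). ULK1 and WIPI1 step up at each change of drug and medium, OPTN and GABARAPL1 are lowest in the rich vehicle group, MAP1LC3B, ATG101, ATG3 and UVRAG are highest in depleted medium with bafilomycin A1, and VMP1 is highest in rich medium with vehicle.

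The 7 genes of the conjugation system, which activates ATG12 and ATG8 proteins and joins them to ATG5 and to lipid, had few calls. None passed with the drug in rich medium or with depletion in vehicle-treated cells, where 0 of 7 also had an unadjusted p under 0.05 in edgeR. DESeq2 called 0 of 7 as well in both. ATG3, the enzyme that transfers ATG8 proteins to phosphatidylethanolamine (chromosome 3, 112532510 to 112561962), had 47.1, 47.6 and 61.6 CPM in depleted medium with bafilomycin A1, against 32.98, 31.1 and 33.5 CPM in depleted medium with vehicle. Rich medium gave 31.1, 28.2 and 30.3 CPM with bafilomycin A1, against 32.1, 26.8 and 43.4 CPM with vehicle, and those groups overlapped. It rose with the drug in depleted medium (0.68, SE 0.18, adjusted p = 0.022) and with depletion in drug-treated cells (0.80, SE 0.18, adjusted p = 0.0045). The first of these ended without depleted vehicle replicate 1, 2 or 3 (adjusted p = 0.077, 0.089 and 0.056) or depleted bafilomycin A1 replicate 3 (0.54, adjusted p = 0.12).

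ATG16L1, which places the conjugation machinery on the membrane, had 25.98, 23.7 and 26.2 CPM in depleted medium with bafilomycin A1, against 16.3, 16.7 and 19.04 CPM in depleted medium with vehicle, without overlap. Rich medium gave 22.02, 21.2 and 19.7 CPM with bafilomycin A1 and 20.9, 20.5 and 21.7 CPM with vehicle, which overlapped. It rose with the drug in depleted medium (0.55, SE 0.14, adjusted p = 0.024), a call that held in 13 of 20 alternatives and ended without depleted vehicle replicate 1 or 2 or any of the 3 depleted bafilomycin A1 libraries (adjusted p = 0.057 to 0.12). ATG5, ATG7, ATG10, ATG12 and ATG16L2 passed in none of the 4 comparisons. Among the 4 ATG4 proteases, which trim ATG8 proteins before conjugation and release them afterwards, ATG4A rose with the drug in depleted medium, with 10.4, 13.02 and 14.1 CPM against 5.38, 6.70 and 7.09 CPM with vehicle (0.97, SE 0.22, adjusted p = 0.01). Rich medium gave 10.99, 10.5 and 7.76 CPM with the drug and 6.55, 7.19 and 9.12 CPM with vehicle, which overlapped. Its call ended without depleted vehicle replicate 1 (0.86, adjusted p = 0.066) or depleted bafilomycin A1 replicate 3 (0.88, adjusted p = 0.057), and ATG4B, ATG4C and ATG4D were not called in any of the 4.

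MAP1LC3B, which encodes LC3B, the usual marker protein of autophagosomes (chromosome 16, 87392336 to 87404774), had 195, 203 and 266 CPM in depleted medium with bafilomycin A1, against 107, 93.3 and 111 CPM in depleted medium with vehicle. Rich medium gave 160.5, 139 and 126 CPM with bafilomycin A1, against 135, 77.5 and 99.8 CPM with vehicle. The depleted drug-treated libraries lay above all others, and the rich groups overlapped. The drug raised it 2.13-fold in depleted medium (1.09, SE 0.20, adjusted p = 0.0028), and depletion raised it with the drug (0.64, SE 0.20, adjusted p = 0.026). With vehicle, depleted and rich medium averaged 104 ± 9.38 and 104 ± 28.97 CPM, and the 95% interval of the log2 difference was -0.38 to 0.38. Without the shallow rich vehicle replicate 1, its highest library there, the drug passed in rich medium as well (0.68, adjusted p = 0.039). The call for depletion with the drug ended without rich bafilomycin A1 replicate 2 or 3 (adjusted p = 0.089 and 0.079) or depleted bafilomycin A1 replicate 3 (0.49, adjusted p = 0.12). Exons of MAP1LC3B overlap FBXO31 on the other strand, and reads shared with the near copy MAP1LC3B2 could be split by the authors' estimation, although MAP1LC3B2 held 0.977 to 3.94 CPM.

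GABARAPL1, a GABARAP family member, had the pattern of WIPI2, low in rich vehicle libraries and level elsewhere. It had 110.2, 106 and 131 CPM in depleted medium with bafilomycin A1, against 113, 101 and 129 CPM in depleted medium with vehicle. Rich medium gave 103, 96.2 and 129 CPM with bafilomycin A1, against 61.02, 53.8 and 85.2 CPM with vehicle. The drug raised it in rich medium (0.71, SE 0.18, adjusted p = 0.023) and depletion raised it with vehicle (0.78, SE 0.18, adjusted p = 0.0052), while the drug in depleted medium gave 0.02 (95% interval -0.34 to 0.38). The drug's call in rich medium ended without rich vehicle replicate 1 or 2 (adjusted p = 0.069 and 0.055) or rich bafilomycin A1 replicate 3 (0.58, adjusted p = 0.11), and without rich vehicle replicate 1 and rich bafilomycin A1 replicate 3 together (0.51, adjusted p = 0.19). GABARAP itself was called for depletion with vehicle at the threshold (0.49, adjusted p = 0.0497), with overlapping libraries of 52.7, 45.2 and 60.8 CPM in depleted medium against 37.2, 29.3 and 46.5 CPM in rich medium, and the call held in 5 of 20 alternatives. It ended without any 1 library other than rich vehicle replicate 3 and depleted vehicle replicate 2, with adjusted p of 0.056 to 0.22. GABARAPL2 was called in none of the 4 comparisons.

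MAP1LC3A was close to silent. It had 0 reads in each rich vehicle library, 1, 1 and 16 reads in rich medium with bafilomycin A1, 16, 7 and 6 reads in depleted medium with vehicle and 23, 20 and 25 reads in depleted medium with bafilomycin A1. A count of 0 allows up to 3 reads, here taken over the whole group. Set against that upper limit for rich medium with vehicle, the pooled level was 15.6-fold higher in depleted medium with bafilomycin A1. It was 7.08-fold higher in depleted medium with vehicle and 4.11-fold higher in rich medium with bafilomycin A1. These ratios allow for counting error in rich medium with vehicle only, and not for error in the other group or spread between libraries. In rich medium with the drug nearly all reads came from replicate 3. MAP1LC3A could be tested largely through depleted medium with bafilomycin A1, the only group with at least 10 reads in all 3 libraries. With that limit, it passed the test for depletion with vehicle (adjusted p = 0.022). This call ended without rich vehicle replicate 2 or 3 or depleted vehicle replicate 1 (adjusted p = 0.052 to 0.061). Depletion with the drug passed without rich bafilomycin A1 replicate 3 (adjusted p = 0.0060).

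**Figure D4:**
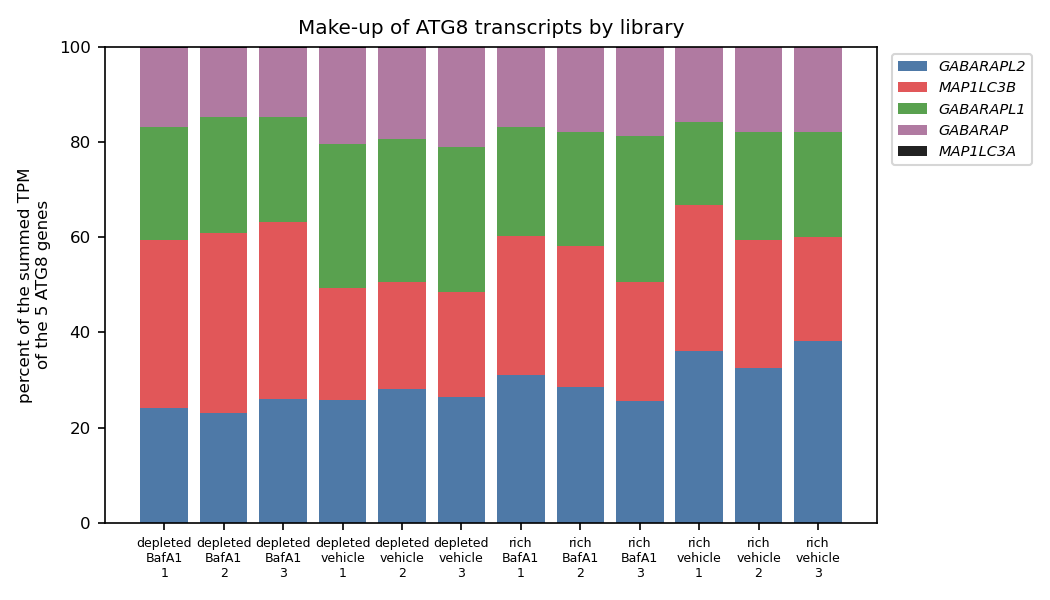
Share of each of the 5 ATG8 genes in their summed TPM, which is scaled by transcript length, with 1 bar for each of the 12 libraries. MAP1LC3B takes its largest share, 35.4% to 37.8%, in depleted medium with bafilomycin A1, and GABARAPL2 leads in rich medium with vehicle; MAP1LC3A is too low to be seen.

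Per transcript length, the make-up of the ATG8 pool differed between groups. MAP1LC3B made up 36.8% ± 1.27 of the ATG8 TPM in depleted medium with bafilomycin A1, against 22.8% ± 0.763 in depleted medium with vehicle, without overlap (SD, n = 3 each). In rich medium its share was 27.98% ± 2.57 with bafilomycin A1 and 26.6% ± 4.45 with vehicle, which overlapped. GABARAPL2 made up 28.4% in rich medium with bafilomycin A1, against 35.6% in rich medium with vehicle, values given with no test.

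Cargo receptors link ubiquitin-tagged or other cargo to ATG8 proteins, and 3 of the 5 rose with the drug in rich medium, 1 in depleted medium, 4 with depletion in vehicle-treated cells and 2 with depletion in drug-treated cells. SQSTM1 (p62), the best known of them and itself degraded by autophagy as a protein (chromosome 5, 179806393 to 179838078), had 799.6, 916 and 999 CPM in depleted medium with bafilomycin A1, against 466, 524 and 552 CPM in depleted medium with vehicle. Rich medium gave 724, 664 and 577 CPM with bafilomycin A1, against 244, 353 and 388 CPM with vehicle. Drug and vehicle libraries did not overlap in either medium. The drug raised SQSTM1 1.99-fold in rich medium (1.00, SE 0.19, adjusted p = 0.0053) and 1.76-fold in depleted medium (0.82, SE 0.19, adjusted p = 0.013), and depletion raised it with vehicle (0.65, SE 0.19, adjusted p = 0.018) but not past the threshold with the drug (0.47, SE 0.19, adjusted p = 0.09). In depleted medium the call ended without depleted vehicle replicate 1 (0.75, adjusted p = 0.074) or depleted bafilomycin A1 replicate 3 (0.74, adjusted p = 0.068). The depletion call ended without rich vehicle replicate 1 (0.47, adjusted p = 0.064) or depleted vehicle replicate 3 (0.57, adjusted p = 0.077), and without rich vehicle replicate 1 depletion passed in drug-treated cells (adjusted p = 0.042). Exons of SQSTM1 overlap MGAT4B and MRNIP on the other strand.

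NBR1, a relative of SQSTM1 that also clears peroxisomes, had 181, 171 and 189 CPM in depleted medium with bafilomycin A1, against 138, 113 and 144 CPM in depleted medium with vehicle. Rich medium gave 105, 115 and 134 CPM with bafilomycin A1, against 72.3, 63.3 and 61.8 CPM with vehicle. It rose with the drug in rich medium (0.84, SE 0.15, adjusted p = 0.0031) and with depletion, 2.00-fold with vehicle (1.00, SE 0.15, adjusted p = 2.0e-04) and 1.53-fold with the drug (0.61, SE 0.15, adjusted p = 0.0072). In depleted medium the drug gave 0.45 (adjusted p = 0.058) with no overlap, and passed with replicate as a blocking factor (0.46, adjusted p = 0.028) and without rich vehicle replicate 1, 2 or 3 or rich bafilomycin A1 replicate 3 (adjusted p = 0.037 to 0.049).

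OPTN, a receptor for mitochondria, bacteria and protein aggregates (chromosome 10, 13100082 to 13138308), was the receptor with the largest drug response in rich medium. It had 78.4, 68.99 and 67.6 CPM in rich medium with bafilomycin A1, against 33.9, 29.8 and 30.9 CPM in rich medium with vehicle. In depleted medium it had 78.8, 63.9 and 70.02 CPM with bafilomycin A1, against 59.2, 44.7 and 60.1 CPM with vehicle. Rich vehicle libraries were the 3 lowest, and with the drug the 2 media overlapped. The drug raised OPTN 2.28-fold in rich medium (1.19, SE 0.15, adjusted p = 4.9e-04), and depletion raised it with vehicle (0.80, SE 0.15, adjusted p = 0.0012). The drug in depleted medium gave 0.38 (adjusted p = 0.12), and depletion with the drug gave -0.02 (95% interval -0.31 to 0.28). TAX1BP1, another ubiquitin-binding receptor, had 135, 129 and 163 CPM in depleted medium with bafilomycin A1, against 112, 107 and 113 CPM in depleted medium with vehicle. Rich medium gave 96.5, 90.6 and 108 CPM with bafilomycin A1, against 82.4, 65.4 and 73.9 CPM with vehicle. No pair of groups compared overlapped. The drug gave 0.42 in rich and 0.36 in depleted medium, which did not pass (adjusted p = 0.077 and 0.12). TAX1BP1 rose with depletion, at 0.59 with vehicle and 0.53 with the drug (adjusted p = 0.0064 and 0.014), and the call with the drug ended without rich bafilomycin A1 replicate 1 or 2 or depleted bafilomycin A1 replicate 3 (adjusted p = 0.060 to 0.079). CALCOCO2 (NDP52), which recognises damaged endosomes around bacteria, was called in none of the 4 at log2 fold changes between 0.34 and 0.37, though its groups overlapped in none of them, and under the block it passed for depletion with vehicle (0.36, adjusted p = 0.034). Without rich vehicle replicate 1 and rich bafilomycin A1 replicate 3 together CALCOCO2 passed for depletion with the drug (0.42, adjusted p = 0.046).

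The 2 genes of fusion and tethering, which help autophagosomes meet lysosomes, both rose with depletion in vehicle-treated cells. TECPR1, a tether that binds ATG5 and PI3P, had 24.9, 30.7 and 27.4 CPM in depleted medium with bafilomycin A1, against 16.5, 14.2 and 19.5 CPM in rich medium with bafilomycin A1. With vehicle it had 23.6, 24.01 and 23.7 CPM in depleted medium, against 10.4, 16.1 and 13.9 CPM in rich medium. Depletion raised it with the drug (0.72, SE 0.18, adjusted p = 0.0096) and with vehicle (0.81, SE 0.18, adjusted p = 0.0039), without overlap, and the call with the drug ended without rich bafilomycin A1 replicate 2 (0.62, adjusted p = 0.065) or depleted bafilomycin A1 replicate 2 (0.64, adjusted p = 0.052). EPG5, a tether that recognises RAB7 and LC3, was called with depletion (0.64, adjusted p = 0.016) and, with overlapping libraries, with the drug in rich medium (0.61, adjusted p = 0.046). The drug's call on EPG5 held in 7 of 20 alternatives and ended without any 1 library other than rich vehicle replicate 2 and rich bafilomycin A1 replicate 3 (adjusted p = 0.059 to 0.14). The depletion call ended without rich vehicle replicate 3 (0.51, adjusted p = 0.059) or depleted vehicle replicate 1 (0.57, adjusted p = 0.070).

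The drug's effects in the 2 media come from separate libraries and could be set against each other. Of the 11 members raised in each medium, 4 were the same, ULK1, WIPI1, SQSTM1 and ATG13. The fold changes had the same sign in 32 of 42 members, against 10170 of 18047 over all genes. Since 34 and 36 of the 42 were positive in rich and in depleted medium, many signs were bound to match. The correlation across the 42 was r = 0.446 (Spearman 0.359), against r = 0.198 (0.192) over all genes. It includes MAP1LC3A, whose log2 fold change of 5.58 in rich medium rests on 0 reads in the rich vehicle libraries. Genes are not independent replicates, so these are descriptions. The test of the difference itself, the interaction of drug and medium, called 2 members lower and 0 higher, where 2.35% of all genes were called higher, 3.83% lower and 6.18% in all, and 4.01% and 4.36% of genes averaging at least 10 CPM were called higher and lower. ULK1 responded less to the drug in depleted medium, by -0.91 on the log2 scale (SE 0.23, adjusted p = 0.031), and so did OPTN, by -0.81 (SE 0.21, adjusted p = 0.037).

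Neither interaction was stable to the loss of a library. ULK1 was called in 10 of 19 alternatives, with values between -1.10 and -0.70, stood at the threshold without rich vehicle replicate 1 (adjusted p = 0.050), and lost its call without rich bafilomycin A1 replicate 2 or 3, depleted vehicle replicate 1 or 3, or any of the 3 depleted bafilomycin A1 libraries (adjusted p = 0.052 to 0.094). OPTN was called in 11 of 19, with values between -0.94 and -0.70, and lost its call without any of the 3 rich bafilomycin A1 libraries, depleted vehicle replicate 1 or 3, or depleted bafilomycin A1 replicate 2 or 3 (adjusted p = 0.056 to 0.12). Without rich vehicle replicate 1 and rich bafilomycin A1 replicate 3 together, ULK1 gave -0.70 (adjusted p = 0.084). For the other members the difference between media did not pass. ATG3 came closest (0.87, SE 0.25, adjusted p = 0.051), then WIPI2 (-0.72, adjusted p = 0.062), PIK3R4 (0.83, adjusted p = 0.072) and WIPI1 (-0.77, adjusted p = 0.095), while MAP1LC3B gave 0.64 (adjusted p = 0.18) and ATG101 0.67 (adjusted p = 0.22). In DESeq2 the interaction also passed for ATG3 (0.90, adjusted p = 0.013), PIK3R4 (0.86, adjusted p = 0.030) and ATG16L1 (0.58, adjusted p = 0.033), and with a negative sign for WIPI2 (-0.69, adjusted p = 0.024) and ULK2 (-1.02, adjusted p = 0.044). Without rich vehicle replicate 1 it passed for WIPI1 (-0.94, adjusted p = 0.043).

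**Figure D5:**
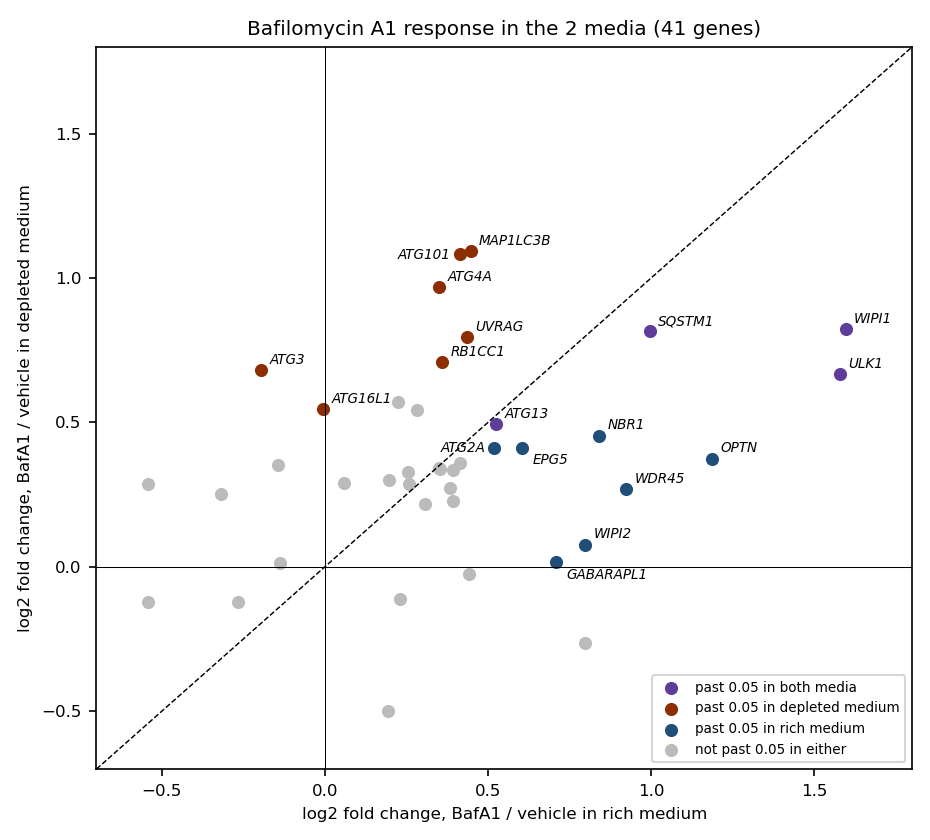
Log2 fold change of bafilomycin A1 over vehicle in rich medium (x axis) and in depleted medium (y axis) for 41 genes, with the dashed line at equal change; colours give where a gene passed an adjusted p of 0.05. ULK1, WIPI1 and OPTN lie below the line, and MAP1LC3B, ATG101, ATG4A and ATG3 lie above it.

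Levels can be compared between genes in TPM. SQSTM1 was the highest of the 42 in each group, at 433 ± 62.7 TPM in depleted medium with bafilomycin A1, 199 ± 8.35 TPM in depleted medium with vehicle, 269.6 ± 50.9 TPM in rich medium with bafilomycin A1 and 158 ± 40.9 TPM in rich medium with vehicle (SD, n = 3 each). It was 65.7%, 58.5%, 64.3% and 57.8% of the receptors' summed TPM in the same groups. ULK1 was 12th of 42 in depleted medium with bafilomycin A1, at 56.95 ± 10.3 TPM, and 27th in rich medium with vehicle, at 10.1 ± 4.35 TPM. WIPI1 was 14th, at 50.8 ± 7.63 TPM, and 28th, at 9.57 ± 4.92 TPM, in those groups. In rich medium with vehicle VMP1 was second at 131 ± 44.3 TPM, which overlapped SQSTM1 and its neighbours TMEM41B (92.9 ± 36.5 TPM) and GABARAPL2 (91.2 ± 33.7 TPM), so their order there is within the spread. MAP1LC3A was the lowest and ULK2 the next lowest, at 0.806 ± 0.0817 and 1.87 ± 0.596 TPM in depleted medium with bafilomycin A1.

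Other genes around autophagy were read from a list of 44, of which 43 were in the tables and 41 were tested. The drug raised 11 of these (26.8%) and lowered 1 (2.44%) in rich medium, where 6.15% of all genes rose and 4.78% fell. In depleted medium it raised 8 (19.5%) and lowered 3 (7.32%), where 5.5% of all genes rose and 5.91% fell. Depletion with vehicle raised 11 (26.8%) and lowered 2 (4.88%), where 15.5% of all genes rose and 15.4% fell. Depletion with the drug raised 7 and lowered 7 (17.1% each), where 10.5% of all genes rose and 13.6% fell. The list and its named genes were chosen with earlier results known. In rich medium with the drug the mitophagy receptor genes BNIP3 (1.93, adjusted p = 0.0014) and BNIP3L (1.49, adjusted p = 0.0025) rose, and so did TP53INP1 (1.55, adjusted p = 2.7e-04) and TP53INP2 (1.66, adjusted p = 3.8e-04), which encode LC3-binding proteins. BNIP3 had 59.5, 92.2 and 51.6 CPM in rich medium with bafilomycin A1, against 16.4, 11.2 and 25.8 CPM in rich medium with vehicle. Depleted medium gave 26.6, 27.1 and 36.5 CPM with bafilomycin A1 and 17.4, 14.8 and 23.2 CPM with vehicle. The receptor genes for endoplasmic reticulum breakdown CALCOCO1 (1.48, adjusted p = 8.9e-05) and RETREG1 (1.43, adjusted p = 2.7e-04) rose with depletion in vehicle-treated cells. PLEKHM1, an adaptor between autophagosomes and lysosomes, rose with the drug in rich medium (0.89, adjusted p = 0.0016) and with depletion (0.62, adjusted p = 0.0038). The 7 genes that depletion lowered in drug-treated cells included VAMP8 (-0.93, adjusted p = 0.020) and RAB7A (-0.48, adjusted p = 0.025) in edgeR. Those calls held in 15 and 13 of 20 alternatives. BCL2, which binds and restrains BECN1, fell with the drug in depleted medium, to 3.29, 3.22 and 2.18 CPM against 10.4, 12.2 and 14.1 CPM with vehicle (-2.07, SE 0.26, adjusted p = 2.8e-04). Rich medium gave 8.66, 8.13 and 10.04 CPM with the drug and 11.7, 7.93 and 6.44 CPM with vehicle, and the interaction was called (-2.13, adjusted p = 0.0054), as it was for TP53INP1 (-1.43, adjusted p = 0.006), for RETREG1 (-1.17, adjusted p = 0.036) and, with a positive sign, for NUFIP1 (1.20, adjusted p = 0.017). The interaction of RETREG1 held in 8 of 19 alternatives and that of NUFIP1 in 18, ending at a minimum fold of 1.5. The calls in this paragraph that concern BNIP3, BNIP3L, TP53INP1, TP53INP2, CALCOCO1 and BCL2, and that of RETREG1 with depletion, held under all alternatives run.

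The 15 members called in none of the 4 comparisons were BECN1, PIK3C3, AMBRA1, ATG9A, TMEM41B, ATG5, ATG7, ATG10, ATG12, ATG16L2, ATG4B, ATG4C, ATG4D, CALCOCO2 and GABARAPL2. A p that missed the threshold does not show that they were level. Of the 42 genes, 21 have exons that overlap exons of a gene on the other strand and 4 on the same strand, among them NBR1, OPTN (CCDC3), ATG13 (HARBI1), ATG2B (GSKIP), ATG3 (SLC35A5) and UVRAG. The library kit keeps strand, but the sources used here do not say whether the authors' counting used it, and reads of such partners cannot be told apart from those of the members.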

How the data were processed

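Caco-2 RNA was sequenced from 12 libraries, 3 in each of 4 groups. Per the labels' protocols, a stranded total RNA kit with ribosomal RNA removal was used. DRAGEN and GRCh38 are named in the submitters' processing notes, and the sources used here give neither the annotation release nor the strand setting. Per the file headers, the authors deposited for each library an estimated count and a TPM value for every gene, made by their quantification, with an effective length beside them. The authors also deposited a series-wide table of whole-number counts of 13518 genes, which holds 41 of the 42 members and served as an alternative. All columns of samples were used.

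After rounding the estimated counts, edgeR's filter kept genes with a minimum count of 10 and a minimum total of 15, and TMM factors scaled the libraries. edgeR 4.0.16 (quasi-likelihood, robust, R 4.3.3) was fitted to all 12 libraries with 4 group means and 8 residual degrees of freedom, and p-values were adjusted by Benjamini-Hochberg over all 18047 genes. TPM was used to compare levels between genes, and to describe cell type markers and the shares of ATG8 and receptor genes by group. No test was run on TPM. The procedure was tested on simulated data. The members, the lists and the tests were chosen with earlier results of these data known. Values in every library were to be given for a panel (SQSTM1, MAP1LC3B, GABARAPL1, ULK1, WIPI1, ATG9A, ATG101 and ATG16L1), the 5 called members with the largest change in each comparison, members called for the interaction and the member of each role with the smallest adjusted p; other called members were added after their values were seen.

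Alternatives were DESeq2 1.42.0, its size factors, no low-count filter, the 6 compared libraries alone, replicate as a blocking factor, the series-wide table, a minimum fold of 1.5, leaving out each library, and, added after seeing the data, leaving out rich vehicle replicate 1 and rich bafilomycin A1 replicate 3 together. The labels number the replicates in each group. Same-numbered libraries deviated together between depleted bafilomycin A1 and depleted vehicle (correlations 0.205, 0.450 and 0.425) and between depleted and rich vehicle (0.204, 0.452 and 0.499), and not all did between rich bafilomycin A1 and rich vehicle (0.131, 0.040 and 0.072) or between depleted and rich bafilomycin A1 (-0.146, -0.034 and 0.054). Floors for a count of 0 cover counting error in that group only. The 95% intervals of log2 fold changes come from the standard errors of the edgeR fit and include the spread between libraries. They were set with the normal distribution, and are narrower than intervals set with the test's degrees of freedom would be.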

Additional observations from a re-analysis of the deposited data

Results flagged for a closer look

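The interaction of bafilomycin A1 and medium was called for ULK1, at -0.91 on the log2 scale (depleted minus rich), and for OPTN, at -0.81. Each was past an adjusted p of 0.05 in edgeR. These 2 calls are 4.76% of the 42 members. That share is close to the 3.83% of all genes, and 4.36% of genes averaging at least 10 CPM, that were called lower. In both genes the drug's fold change was smaller in depleted medium, where vehicle-treated cells already had the higher level. The alternatives under which either call ended are given with the values above.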

How the results depend on the processing

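The number of members called was within 1.5 times the value reported in 69 of the alternatives run over the 5 comparisons and moved further in 30. With the 6 compared libraries alone it was 5 for the drug in rich medium, 17 for the drug in depleted medium and 12 for depletion with vehicle. At a minimum fold of 1.5 it was 3 and 0 for the drug in rich and depleted medium, 5 and 2 for depletion with vehicle and with the drug, and 0 for the interaction. With replicate as a blocking factor it was 17 for the drug in rich medium and 7 for the interaction, where the numbers do not pair the libraries throughout, and 15 and 22 for the drug in depleted medium and depletion with vehicle, where they do; calls that this changed there stand beside their genes. The interaction count was 7 in DESeq2, 4 with no low-count filter, 4 in the series-wide table and 1 without the 2 doubted libraries. Leaving out 1 library gave 7 to 12 for the drug in rich medium (7 without rich bafilomycin A1 replicate 3), 4 to 15 in depleted medium (6 without depleted vehicle replicate 1 or 2, and 4 without depleted bafilomycin A1 replicate 3), 14 to 20 for depletion with vehicle, 7 to 16 with the drug (7 without rich bafilomycin A1 replicate 2, 8 without depleted bafilomycin A1 replicate 3) and 0 to 5 for the interaction.

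The direction turned for values near 0 that had passed no test. ATG16L1 with the drug in rich medium gave 0.012 in the series-wide table, 0.034 without the 2 libraries and -0.038 to 0.043 without 1 library. For depletion with vehicle, MAP1LC3B gave 0.016 under the block, 0.028 in the series-wide table, 0.23 without the 2 libraries and -0.17 to 0.23 without 1, and ATG101 gave -0.10 without the 2 and -0.10 to 0.40 without 1. TECPR1's interaction was 0.18 without the 2 libraries and -0.23 to 0.060 without 1. Without 1 library, ATG3 ranged from -0.34 to 0.028 for the drug in rich medium and from -0.22 to 0.15 for depletion with vehicle, GABARAPL1 from -0.077 to 0.13 for the drug in depleted medium and from -0.011 to 0.22 for depletion with the drug, OPTN from -0.10 to 0.057 for depletion with the drug, and ATG9A's interaction from -0.34 to 0.078. The cause was not tested. Rich vehicle replicate 1 was shallow, which leaves few reads in it for genes of low count. MAP1LC3A had 0 reads in all 3 rich vehicle libraries, not only in replicate 1.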
